A study of Mus musculus with 6 samples.

Results

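Tight junctions are belts of contact near the top of epithelial cells that limit what passes between them. Their strands are built from claudins, small membrane proteins whose outer loops meet those of the next cell, together with occludin. Inside the cell, scaffold proteins such as ZO-1 and cingulin tie the strands to actin, and JAM-A is an adhesion molecule of the immunoglobulin type at the same site. In the epidermis Cldn1 is needed to hold water in the body, while Cldn3, Cldn6 and Cldn7 are better known from simple epithelia, and Cldn6 from embryonic ones. Described here are 9 genes of this structure among the 55416 genes of the deposited count table, namely the claudins Cldn1, Cldn3, Cldn4, Cldn6 and Cldn7 and, beside them, Ocln (occludin), Tjp1 (ZO-1), Cgn (cingulin) and F11r (JAM-A). They were chosen by name with the result of the genotype comparison known, on the pattern of a lower Cldn1 and higher Cldn3, Cldn6 and Cldn7 in the knockout. Their differences between genotypes are therefore given as a description, with no test, and tests are kept for genes outside the set.

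The libraries came from primary keratinocytes of C57BL/6J:129 hybrid pups 1 to 2 days old, either wild type or without Cebpb, the gene of the transcription factor C/EBPβ. All cultures were kept in 0.05 mM calcium, were exposed to UVB (10 mJ/cm2, lamp at 312 nm) 5 days after plating and were lysed after a further 8 h. Each genotype has 3 libraries, wild type 1 to 3 and knockout 4 to 6, and no library of unexposed cells was analysed here, so genotype and not UVB is compared. As background, keratinocytes assemble tight junctions when calcium is raised. Whether libraries were separate pups or cultures is not in the labels, so errors and p-values measure the spread between libraries, which may be technical.

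Libraries held 107757415 to 122797031 counts in wild type and 81256192 to 92987497 counts in knockout cells, and 3 counts amounted to at most 0.0349 CPM. Levels are CPM, counts scaled to library size, after adjustment with TMM, a trimmed mean of ratios between libraries. Cebpb stood at 121 to 163 CPM in wild type against 0.820 to 1.10 CPM in knockout libraries. All 8 listed keratinocyte markers, Krt5 and Krt14 among them, were present (1 called higher and 7 lower in knockout cells), and their sum was 36175 to 40944 CPM in wild type against 21108 to 22162 CPM in knockout libraries. Besides genotype, the groups differed in sex-linked transcripts, with a sum of 60.7 to 68.1 CPM over 4 Y-linked genes in wild type and 0.101 to 0.158 CPM in knockout libraries. Xist, the transcript of the inactive X chromosome in females, stood at 387 to 415 CPM in wild type and was thus present there too, against 567 to 604 CPM in knockout libraries. Wild type libraries therefore held both kinds of transcript, and the sex make-up of the cultures and the genotype cannot be told apart in any value of this comparison. All 9 genes lie on autosomes. Among markers of other cells, the sums were 680 to 769 CPM in wild type against 597 to 676 CPM in knockout libraries for 6 melanocyte genes, of which 0 were called higher and 4 lower. For 6 fibroblast genes they were 4.82 to 6.37 and 4.01 to 4.44 CPM (4 tested, 0 higher, 1 lower, 1 at 0 in all libraries). For 6 endothelial genes they were 7.01 to 7.51 and 4.95 to 5.87 CPM (3 tested, 0 higher, 1 lower). Of these 6, 2 were at 0 in all wild type and 3 in all knockout libraries. For 6 immune genes the sums were 0.381 to 0.619 and 0.347 to 0.477 CPM (1 tested, Cd74, called higher, 2 at 0 in each genotype). The Cd74 call rests on 13 to 41 counts a library (edgeR adjusted p = 0.0476) and was not checked under other settings. Of the untested, Adgre1 went from 0.169 to 0.00336 CPM and Itgam from 0.130 to 0.0202 CPM, while Cd207 went from 0 to 0.00350 CPM. For 6 Merkel cell genes the sums were 1.27 to 1.67 and 2.13 to 2.66 CPM (4 tested, 1 higher, 0 lower, 1 at 0 in all knockout libraries). Over all genes tested, 24.8% were called higher and 23.7% lower. The part of these other cells in the results was not tested. In bulk RNA, fewer cells of a type and less RNA per cell cannot be told apart.

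Cldn1 (ENSMUSG00000022512), the barrier claudin of the epidermis, was the only one of the 5 claudins in the set with a lower level in knockout cells. It stood at 945, 881 and 851 CPM in wild type libraries 1 to 3 and at 417, 417 and 477 CPM in knockout libraries 4 to 6. The groups did not overlap, and library 6 was the highest of the knockout group. The mean went from 892 ± 48.0 to 437 ± 34.3 CPM (SD, n = 3 each), a log2 fold change of -1.03 ± 0.06 (SE), which is 2.04-fold lower.

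Cldn3 (ENSMUSG00000070473) went the other way. Its level was 111, 103 and 96.0 CPM in wild type against 424, 431 and 395 CPM in knockout libraries, so that each knockout library was above every wild type library. The mean was 103 ± 7.54 and 417 ± 19.3 CPM, and the log2 fold change 2.01 ± 0.07. A deposited count of Cldn3 may have gained or lost reads where it meets Wbscr25, an antisense gene that shares 40 of the 1259 exon bases in an older annotation. Wbscr25 itself had 5 to 51 counts in a library and Cldn3 at least 9578. Those counts do not show how reads over the shared bases were assigned, because the strand setting is not known.

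Cldn6 (ENSMUSG00000023906) and Cldn7 (ENSMUSG00000018569) had the widest gaps of the set and the lowest levels in wild type. For Cldn6 the values were 2.34, 2.51 and 2.27 CPM in wild type against 33.0, 28.5 and 30.1 CPM in knockout libraries, a difference of 3.68 ± 0.11 log2 units or 12.8-fold. For Cldn7, whose product binds the adhesion protein EpCAM, they were 9.01, 10.7 and 9.77 CPM against 83.5, 77.1 and 77.1 CPM, a difference of 3.01 ± 0.08 log2 units or 8.06-fold. Neither gene had overlapping groups. The wild type values rest on 226 to 292 counts of Cldn6 and 974 to 1244 counts of Cldn7 per library, well above the 3 counts taken as a floor.

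Cldn4 (ENSMUSG00000047501), which lies next to Cldn3 in the genome, was the most abundant of the 9 genes per length in both genotypes. It was at 1681, 1494 and 1499 CPM in wild type against 2501, 2525 and 2480 CPM in knockout libraries. Its difference of 0.68 ± 0.06 log2 units (1.61-fold) was smaller than that of its neighbour: counted per length within a library, Cldn3 amounted to 0.0958 ± 0.00361 of Cldn4 in wild type and 0.240 ± 0.00918 in knockout cells (SD, n = 3 each). Such a ratio within a library does not depend on how libraries are scaled.

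**Figure D1:**
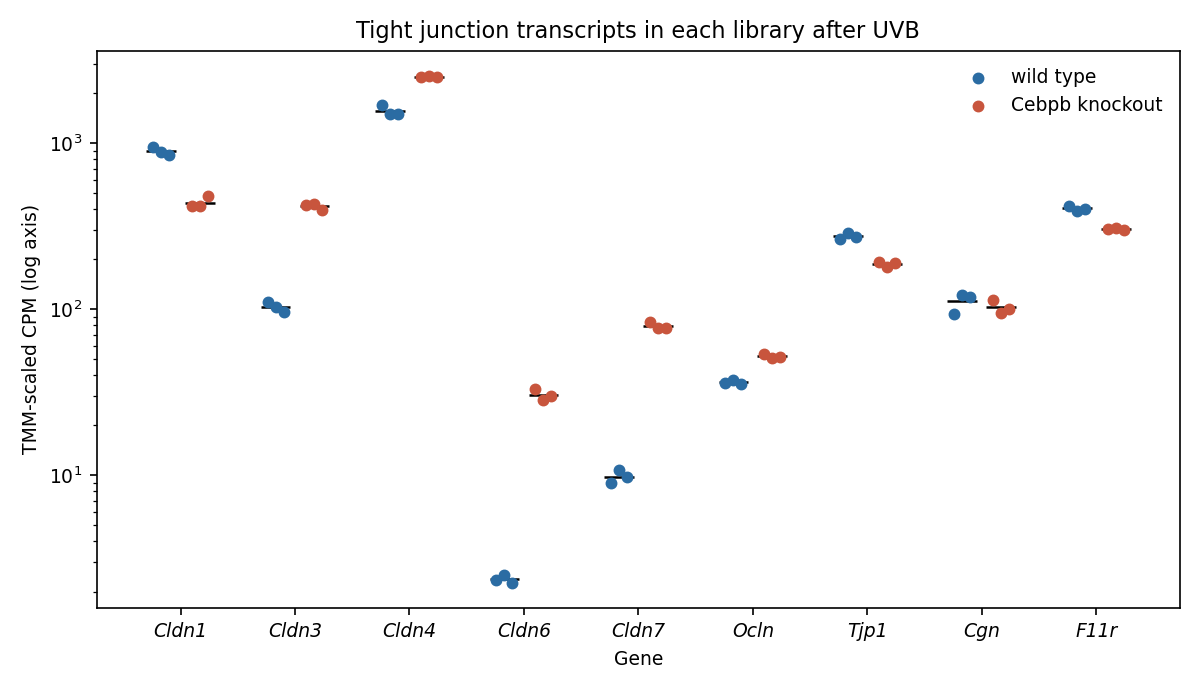
TMM-scaled CPM (log axis) of the 9 genes in each library, wild type in blue and Cebpb knockout in red, with a black line at each mean of 3 libraries. The groups are apart in 8 genes and overlap in Cgn, and Cldn6 goes from at most 2.51 CPM in wild type to at least 28.5 CPM in knockout libraries.

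The remaining membrane proteins of the set differed less. Occludin's gene, Ocln (ENSMUSG00000021638), was at 35.8, 37.4 and 35.6 CPM in wild type against 54.0, 50.6 and 51.6 CPM in knockout libraries, a log2 fold change of 0.52 ± 0.07. F11r (ENSMUSG00000038235), encoding JAM-A, was at 420, 392 and 400 CPM against 305, 307 and 298 CPM, a log2 fold change of -0.41 ± 0.05. Wild type and knockout libraries of both genes were apart, in opposite directions.

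Of the scaffolds, Tjp1 (ENSMUSG00000030516), which encodes the claudin-binding ZO-1, was lower in knockout cells and Cgn (ENSMUSG00000068876), which encodes cingulin, overlapped. Tjp1 stood at 264, 287 and 271 CPM in wild type against 193, 179 and 188 CPM in knockout libraries (-0.55 ± 0.06 log2 units). Cgn had 93.4, 122 and 119 CPM in wild type against 114, 94.9 and 99.6 CPM in knockout libraries, with wild type library 1 below all 3 knockout libraries. Its log2 fold change of -0.11 ± 0.09 turned to 0.085 when libraries were scaled by their totals. Counted per length, Ocln over Tjp1 was 0.245 ± 0.00524 in wild type and 0.516 ± 0.00859 in knockout cells.

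Within a genotype the 9 genes varied little between libraries. The coefficient of variation ran from 2.60% (Ocln) to 8.62% (Cldn7) in wild type for all but Cgn, which was higher, and from 0.909% (Cldn4) to 9.74% (Cgn) in knockout libraries. Of the 9, 8 had groups that did not overlap, all but Cgn. In the fit over all 17659 genes tested, 48.6% were called (Benjamini-Hochberg adjusted p under 0.05), 24.8% higher and 23.7% lower, and 56.4% did not overlap. Since the set was chosen on this contrast, nothing is read from its count. For scale, 66 genes (0.374% of those tested) had a log2 fold change at least that of Cldn6, 132 (0.747%) that of Cldn7 and 405 (2.29%) that of Cldn3, and 1201 (6.80%) were at or below Cldn1. The median log2 fold change was 0.52 over the set and 0.01 over all genes tested, and the value of the set follows in part from how it was chosen.

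Levels of different genes are comparable only per length, here as CPM per kilobase of exons in the older GENCODE M21 annotation. In wild type cells the order was Cldn4 (858 CPM per kb), Cldn1 (184), F11r (152), Cldn3 (82.1), Tjp1 (35.1), Cgn (18.5), Ocln (8.59), Cldn7 (5.04) and Cldn6 (1.38), with no overlap between neighbours in that order. In knockout cells it was Cldn4 (1378 CPM per kb), Cldn3 (331), F11r (114), Cldn1 (90.3), Cldn7 (40.7), Tjp1 (23.9), Cldn6 (17.7), Cgn (17.1) and Ocln (12.3), where libraries of Cldn6 and Cgn overlapped and all other neighbours did not. Cldn3 thus stood in place 4 in wild type and place 2 in knockout cells, and Cldn1 in places 2 and 4. With the length of the longest coding transcript, Cldn1 (135 CPM per kb) and F11r (120) changed places in knockout cells, as did Cgn (20.5) and Cldn6 (18.8).

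Counted this way, the transcripts of 23 claudins summed to 1163 ± 74.7 CPM per kb in wild type and 1882 ± 20.6 CPM per kb in knockout cells (SD, n = 3 each), 1.62-fold more. Cldn4 made up 73.8 ± 0.564% of the sum in wild type and 73.2 ± 0.239% in knockout cells. Beside it, Cldn1 went from 15.9 ± 0.280% to 4.80 ± 0.430% and Cldn3 from 7.07 ± 0.219% to 17.6 ± 0.627%. Cldn7 went from 0.436 ± 0.0602% to 2.16 ± 0.0991% and Cldn6 from 0.119 ± 0.0105% to 0.942 ± 0.0714%. Per length, the ratio of Cldn3 to Cldn1 was 0.452, 0.450 and 0.434 in wild type libraries 1 to 3 against 3.91, 3.97 and 3.18 in knockout libraries 4 to 6.

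**Figure D2:**
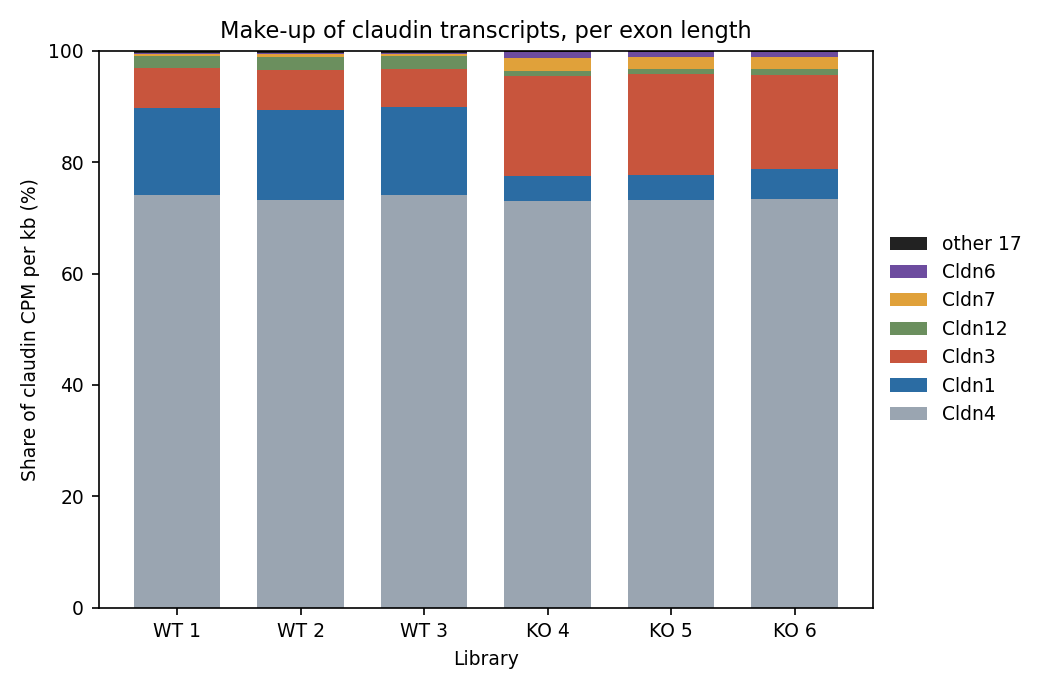
Share of each claudin (percent, per exon length) in the summed claudin transcripts of each library, with wild type libraries 1 to 3 on the left and knockout libraries 4 to 6 on the right. Cldn4 (grey) holds the larger part throughout, the Cldn1 band (blue) is thinner and the Cldn3 band (red) thicker in each knockout library.

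The windows of 250 bases before to 50 bases after the start of transcription are shown for the 5 claudins, because 4 of them were higher in knockout cells and 1 was lower. They are RefSeq sequences of the GRCm38.p6 build, an older build than the GRCm39 of the counts, and all 9 genes had at least 1 window (Cldn7 and Ocln have 2 each, and the second of Cldn7 is shown). Capitals mark CAGGTG or its reverse complement CACCTG, the E-box letters bound by the repressors of the Snail and ZEB families.
Cldn1, chr16:26371790-26372089 on the minus strand: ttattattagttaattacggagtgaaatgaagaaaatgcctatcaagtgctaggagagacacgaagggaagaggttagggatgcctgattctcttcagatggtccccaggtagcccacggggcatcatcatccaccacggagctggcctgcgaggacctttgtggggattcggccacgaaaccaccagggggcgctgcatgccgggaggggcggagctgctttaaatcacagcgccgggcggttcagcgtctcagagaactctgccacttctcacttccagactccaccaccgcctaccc
Cldn3, chr5:134985964-134986263 on the plus strand: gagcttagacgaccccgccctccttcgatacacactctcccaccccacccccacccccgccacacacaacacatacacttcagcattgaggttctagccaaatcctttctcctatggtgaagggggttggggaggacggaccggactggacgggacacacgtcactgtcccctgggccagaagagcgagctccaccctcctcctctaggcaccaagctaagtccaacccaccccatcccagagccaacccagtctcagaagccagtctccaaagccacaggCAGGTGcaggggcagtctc
Cldn4, chr5:134946885-134947184 on the minus strand: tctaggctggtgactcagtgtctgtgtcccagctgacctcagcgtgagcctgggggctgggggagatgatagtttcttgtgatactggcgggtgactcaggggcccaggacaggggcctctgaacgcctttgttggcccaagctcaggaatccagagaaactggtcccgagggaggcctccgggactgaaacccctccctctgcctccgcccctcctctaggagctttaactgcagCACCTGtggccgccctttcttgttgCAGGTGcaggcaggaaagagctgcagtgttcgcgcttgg
Cldn6, chr17:23679115-23679414 on the plus strand: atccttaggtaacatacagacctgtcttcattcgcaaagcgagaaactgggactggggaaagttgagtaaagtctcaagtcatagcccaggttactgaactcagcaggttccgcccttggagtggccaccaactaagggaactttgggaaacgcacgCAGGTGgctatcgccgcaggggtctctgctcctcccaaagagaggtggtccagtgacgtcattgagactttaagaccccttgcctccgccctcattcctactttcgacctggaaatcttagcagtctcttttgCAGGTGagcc
Cldn7, chr11:69965171-69965470 on the plus strand: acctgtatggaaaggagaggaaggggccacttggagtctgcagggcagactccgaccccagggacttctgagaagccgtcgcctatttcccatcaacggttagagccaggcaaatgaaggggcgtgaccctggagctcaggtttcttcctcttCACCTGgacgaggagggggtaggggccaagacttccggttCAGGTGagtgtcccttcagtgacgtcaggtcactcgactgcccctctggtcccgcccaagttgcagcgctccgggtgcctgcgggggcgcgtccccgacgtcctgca
The letters CAGGTG or CACCTG occurred in the windows of Cldn3, Cldn4, Cldn6 and Cldn7 shown above, and in those of Ocln and F11r, 7 of the 11 windows of the set, and in neither of Cldn1, Tjp1 and Cgn nor the first window of Cldn7. Of 32851 windows of all genes, 20.2% held them. In Cldn4 one match began 14 bases before the start of transcription, in Cldn6 93 bases and in Cldn7 97 and 57 bases before it. The letters TTNNGCAA or TTGCNNAA, a form of the site of C/EBP factors, were in 0 of the 11 windows and in 10.8% of all windows. TGANTCA, the AP-1 letters, occurred in the windows of Cldn4 and F11r and in 7.81% of all, and AACNNGTT, the letters of Grainyhead-like factors, in that of Cgn and in 4.20% of all. Each motif was searched on both strands, no match of 1 motif overlapped a match of another, and the windows of Ocln overlap each other. A match is a description of letters and not evidence of binding.

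The other genes of the junction came from lists of 75 symbols, of which 74 were matched and 57 passed the filter on low counts. In the edgeR quasi-likelihood fit, with p adjusted over all genes by Benjamini-Hochberg, 20 rose, 19 fell and 18 were not called, 68.4% called against 48.6% of all genes tested. Their median log2 fold change was 0.03, beside 0.01 over all genes. With library totals as the scale, which lifts the median gene by 0.20, 27 rose and 14 fell. The 48.6%, here and for the lists below, covers all genes tested, scarce ones included, and is not matched for abundance. Once genes averaging under 1 CPM were dropped, 3923 of the 12526 left were called higher and 3661 lower, a larger share. How far abundance accounts for the share called in a list was not tested.

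Only Cldn12 (113 ± 3.92 to 81.3 ± 2.18 CPM) fell among the 4 other claudins that passed the filter, by 0.47 ± 0.06 log2 units (edgeR adjusted p = 5.39e-06). Cldn23 was at 8.54 ± 1.01 and 8.73 ± 0.383 CPM (log2 fold change 0.03, edgeR adjusted p = 0.847). Cldn8, with 0.197 and 0.0789 CPM, and Cldn15, with 0.293 and 0.274 CPM, were scarce and not called (edgeR adjusted p = 0.128 and 0.878). The other 14 matched claudins did not pass the filter. Without wild type library 2, and likewise without knockout library 6, 1 of these 14 passed it and was called higher. Among the 14 was Cldn9, the neighbour of Cldn6, at 1, 7 and 1 counts in wild type and 15, 18 and 2 counts in knockout libraries.

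Membrane proteins other than claudins had 5 of 7 tested members higher and 1 lower (median 0.30). The share called was 85.7%, against 48.6% of all genes tested. The tricellular protein gene Ildr1, which marks the points where 3 cells meet, was at 8.73, 7.43 and 6.30 CPM in wild type against 34.7, 27.9 and 29.1 CPM in knockout libraries. It rose by 2.03 ± 0.12 log2 units (edgeR adjusted p = 1.22e-09). Per length, Ildr1 was at 1.74 CPM per kb in wild type and 7.12 in knockout cells. Lsr, of the same list, was more abundant, at 92.7 and 109 CPM per kb. Its log2 fold change was 0.24 ± 0.06 (edgeR adjusted p = 0.00295). Marveld3, a relative of occludin, rose from 13.8 ± 0.449 to 20.7 ± 0.492 CPM (edgeR adjusted p = 3.94e-05). Clmp, a scarce adhesion molecule, fell from 0.829 ± 0.232 to 0.196 ± 0.119 CPM (edgeR adjusted p = 5.96e-04). Marveld2 (tricellulin), the neighbour of Ocln, went from 25.8 ± 0.354 to 30.5 ± 3.81 CPM, and its call (edgeR adjusted p = 0.0361) was lost without wild type library 2 (adjusted p = 0.0639), without wild type library 3 (0.116) and without knockout library 4 (0.263).

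Of 15 plaque scaffold genes 5 rose, 5 fell and 5 missed the threshold (median -0.13, or 0.07 with library totals). With TMM 66.7% were called, against 48.6% of all genes tested. Tjp3 (ZO-3), a scarcer relative of Tjp1, rose from 1.73 ± 0.188 to 7.81 ± 1.63 CPM (2.18 ± 0.17 log2 units by edgeR, adjusted p = 2.94e-08). Cgnl1 (paracingulin), the relative of Cgn, rose from 1.65 ± 0.470 to 8.09 ± 0.588 CPM (2.30 ± 0.19 log2 units by edgeR, adjusted p = 4.15e-08). Both stayed far scarcer per length than their relatives in knockout cells, at 2.10 CPM per kb for Tjp3 and 1.03 for Cgnl1 against 23.9 for Tjp1 and 17.1 for Cgn.

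EpCAM partners and membrane proteases were all called, 4 of 6 higher and 2 lower, against 48.6% called of all genes tested. Epcam (ENSMUSG00000045394), whose product binds and stabilises claudin-7, was at 433, 378 and 383 CPM in wild type against 1612, 1662 and 1880 CPM in knockout libraries, and rose by 2.11 ± 0.07 log2 units (edgeR adjusted p = 1.48e-12). Prss8, the gene of a membrane protease that the skin barrier needs, fell from 121 ± 10.7 to 47.8 ± 3.44 CPM (-1.34 ± 0.08, edgeR adjusted p = 5.65e-10), whereas its partner protease St14 and the inhibitors Spint1 and Spint2 were called higher.

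Polarity genes, whose products place the junction along the cell's height, had 3 of 14 higher, 5 lower and 6 not called (median 0.07). The share called was 57.1%, near the 48.6% of all genes tested. With library totals 7 were higher and 3 lower. Prkci, the atypical protein kinase C of keratinocytes, fell from 208 ± 11.1 to 134 ± 1.72 CPM (edgeR adjusted p = 1.72e-07) and Crb3 from 96.2 ± 4.64 to 64.8 ± 2.83 CPM (edgeR adjusted p = 1.68e-06). Pard6g rose from 56.1 ± 6.38 to 93.0 ± 2.79 CPM (edgeR adjusted p = 9.02e-07).

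**Figure D3:**
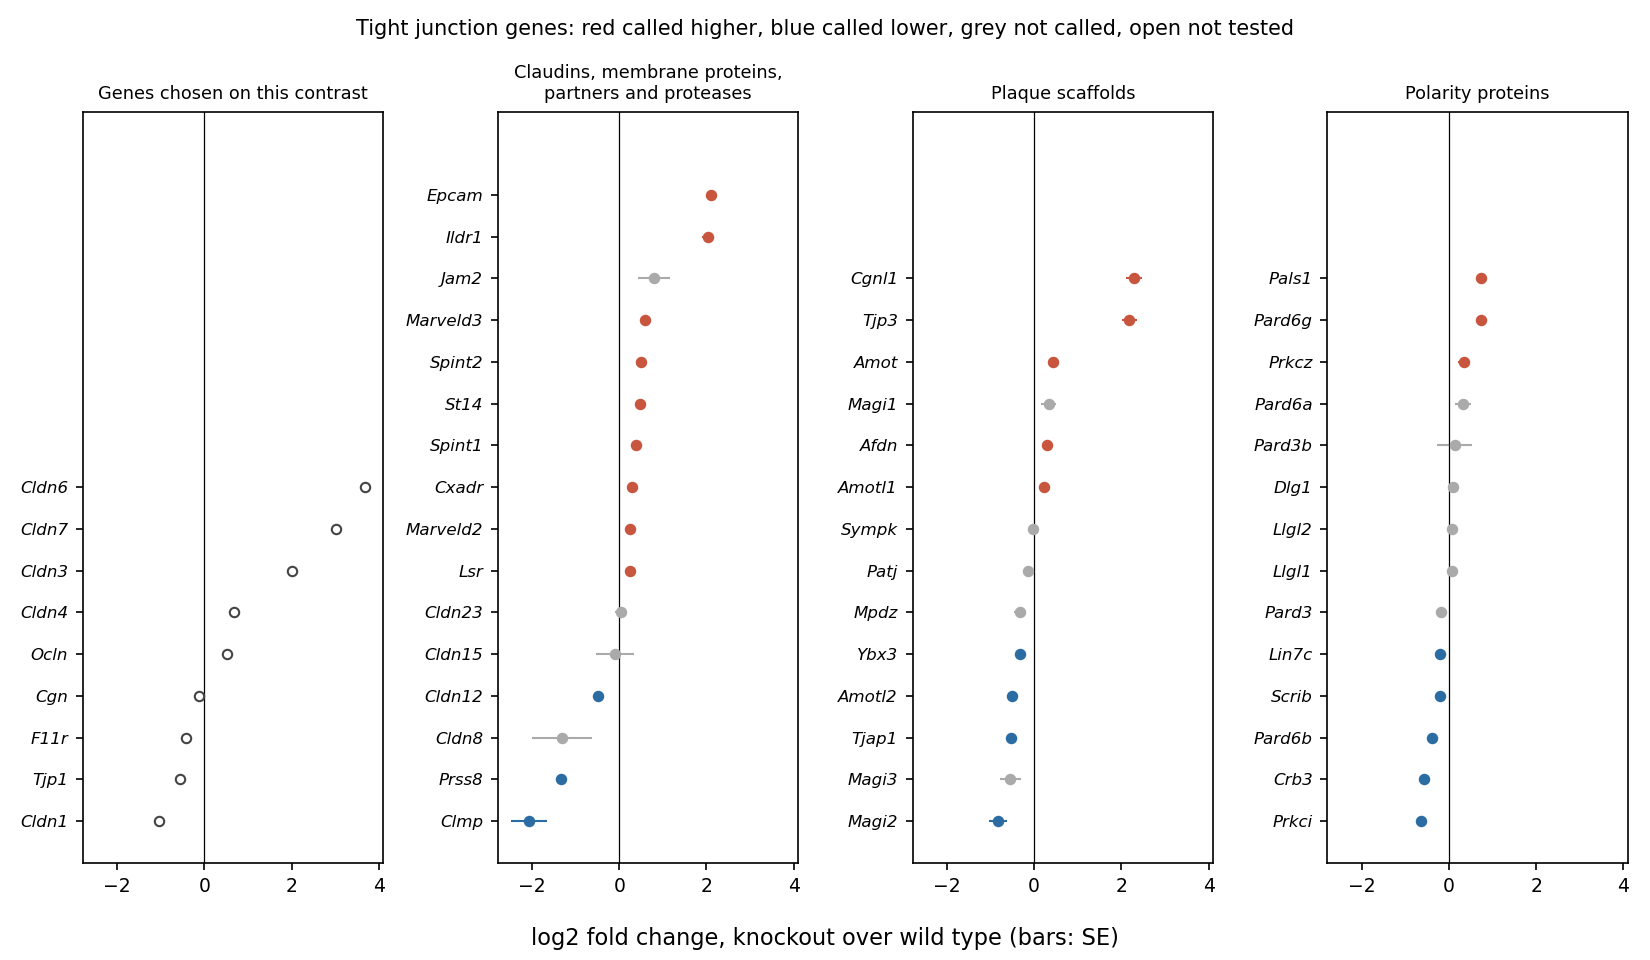
Log2 fold change, knockout over wild type (x axis, bars SE), of the 9 genes described (open, no test) and of other tested junction genes, in red where called higher, blue where called lower and grey where not called. Epcam, Ildr1, Tjp3 and Cgnl1 lie at 2.03 to 2.30 log2 units, and Clmp is the lowest gene outside the set of 9, at -2.06.

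Adherens junctions, the cadherin contacts just below, had 2 of 10 tested genes higher, 2 lower and 6 not called (median -0.03). The share called was 40%, near the 48.6% of all genes tested. With library totals 5 were higher and 1 lower. The nectin genes Nectin3 (4.48 ± 0.397 to 8.30 ± 0.846 CPM, edgeR adjusted p = 2.87e-05) and Nectin2 (log2 fold change 0.52 ± 0.08, edgeR adjusted p = 8.76e-05) rose. Ctnna1, which links cadherins to actin, fell from 373 ± 27.1 to 286 ± 32.9 CPM (edgeR adjusted p = 5.45e-04).

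Among 17 transcription factor genes tied to claudin genes, 15 were tested, 2 rose, 9 fell and 4 were not called (median -0.66). The share called was 73.3%, against 48.6% of all genes tested. With library totals 6 were higher and 9 lower. The risers were Grhl2 and Ovol2, and each lost its call without some libraries: Grhl2 without wild type library 1 or 3 or knockout library 4 or 6 (adjusted p by edgeR 0.100 to 0.183), and Ovol2 without wild type library 2 or 3 or knockout library 5 (0.0667 to 0.134). The smallest p-values were those of Grhl1 (log2 fold change -2.72 ± 0.07, edgeR adjusted p = 9.65e-14), Ovol1 (-2.50 ± 0.10, edgeR adjusted p = 9.47e-11) and Trp63 (-1.95 ± 0.10, edgeR adjusted p = 1.85e-10), which encode epidermal regulators. The genes of repressors that bind the E-box letters were looked at after their values were seen. Snai2 fell from 75.8 ± 8.49 to 47.9 ± 6.99 CPM (edgeR adjusted p = 6.08e-05), Zeb2 fell from 0.723 ± 0.0601 to 0.302 ± 0.0305 CPM (edgeR adjusted p = 0.00320) and Snai1 was at 0.175 ± 0.0175 and 0.356 ± 0.177 CPM (edgeR adjusted p = 0.0858, or 0.0438 without knockout library 6 and 0.0410 with library totals). Zeb1 and Twist1 did not pass the filter on low counts.

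The keratins of simple epithelia were listed beside the claudins. Of 5 tested, 4 rose and 0 fell (80% called, against 48.6% of all genes tested). Their summed level was 358 to 392 CPM in wild type against 1628 to 1849 CPM in knockout libraries. Krt8 rose from 60.5 ± 1.74 to 960 ± 59.4 CPM (3.99 ± 0.07 log2 units by edgeR, adjusted p = 7.42e-16) and its partner Krt18 from 62.9 ± 1.19 to 451 ± 57.2 CPM (2.84 ± 0.08, edgeR adjusted p = 1.88e-13). Krt20, a keratin of Merkel cells, was not called, while the Merkel cell list held 1 called gene, Piezo2, at 0.209 ± 0.114 and 1.72 ± 0.233 CPM (edgeR adjusted p = 2.02e-06). The 3 other tested genes of that list were not called and had lower means in knockout cells. They were Atoh1 (0.323 to 0.262 CPM), Chga (0.545 to 0.265 CPM) and Syp (0.245 to 0.0964 CPM). The median log2 fold change of the list was -0.67.

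Likeness of pattern was measured as the root mean square difference of log2 CPM over the 6 libraries, each gene centred on its mean, among 9480 genes with at least 5 CPM, and with 2 genotypes it mostly reflects a like fold change. Nearest to Cldn1 were Tom1l2 (0.0352 log2 units), Higd1a (0.0360) and Emp2 (0.0380), the last a membrane protein of 602 ± 42.8 CPM in wild type against 307 ± 24.5 CPM in knockout cells. Nearest to Cldn3 were Ecm1 (0.0637), Ckap2 (0.0671) and Nptxr (0.0685). Ecm1, a secreted matrix protein of skin, stood at 110 ± 13.8 and 419 ± 31.3 CPM. Cldn6 was nearest to Glipr2 (0.109), the chemokine gene Cx3cl1 (0.131, from 4.24 ± 0.773 to 55.1 ± 2.12 CPM) and C1qtnf1 (0.178). Each of these had a wild type mean below 5 CPM (Glipr2 1.53, C1qtnf1 1.86), as had Nptxr (4.11). They passed the minimum through their knockout libraries. For Cldn7 the nearest were the growth factor gene Pdgfb (0.0993, from 14.6 ± 1.52 to 130 ± 1.86 CPM), Rassf10 (0.136) and Ankk1 (0.150).

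**Figure D4:**
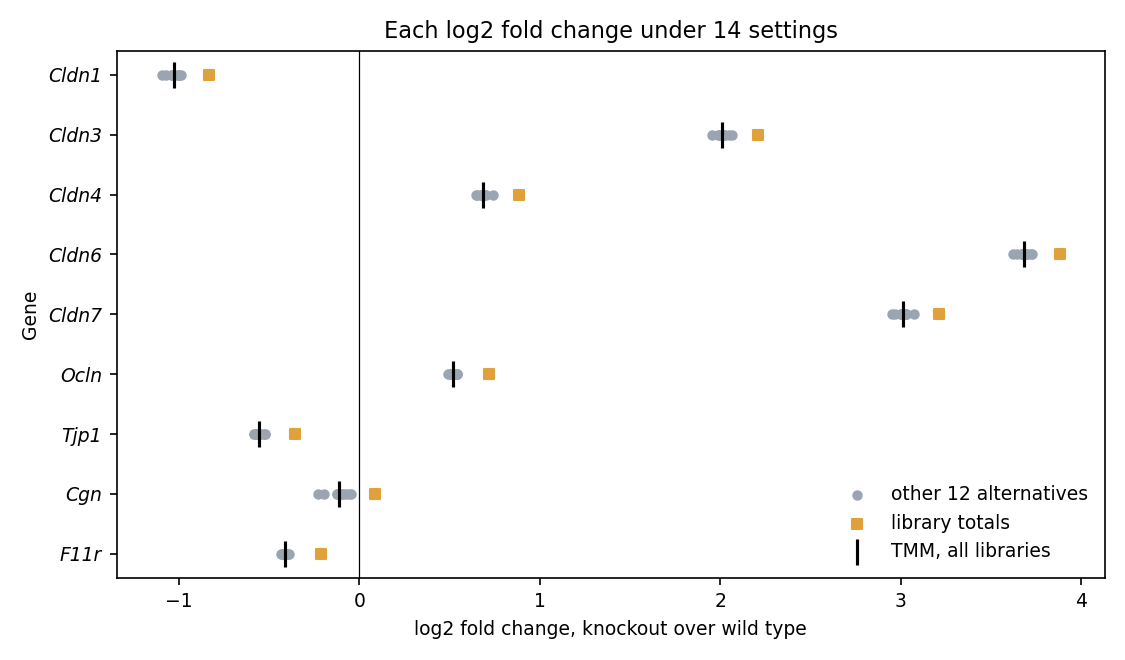
Log2 fold change of each of the 9 genes (x axis) in the TMM-scaled fit of all libraries (black bar), with library totals in place of TMM (orange square) and under 12 other alternatives (grey points). Scaling by totals moves each gene up by about 0.20 and takes Cgn across zero, while the other 8 keep their direction in all settings shown.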

How the data were processed

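Per the labels' protocols, read pairs of 150 bp were sequenced. The deposited table holds raw counts, 1 column a library. The tools STAR and HTSeq, with FastQC and DESeq2, are named per the submitters' processing notes, as is the build GRCm39 (mm39). The sources used here name no version, annotation release or strand setting. How reads over antisense or overlapping genes were counted is therefore not known, and the same holds for reads of near-identical genes.

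Of 55416 identifiers, 52083 had a symbol, and Pals1 was matched as Mpp5 by its synonym. The test was edgeR's quasi-likelihood test (edgeR 4.0.16, R 4.3.3) on the counts, with genotype as the only factor, filterByExpr at a minimum of 10 counts (17659 genes) and TMM scaling. CPM are counts divided by the TMM-adjusted library size. SEs are the log2 fold change over the square root of F. Alternatives used DESeq2 (1.42.0), limma voom (limma 3.58.1), other scalings, filters and depths, and each library left out. Pairs of libraries of 1 genotype differed by a chi-square of at least 19.8 per degree of freedom, so none was treated as a repeat. Library numbers run from 1 to 6 and pair no samples.

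The 9 genes and the gene lists were chosen with earlier results of these data known. Named are the 9 genes, each other claudin tested, the 3 called genes with the smallest p of each list, and the 3 genes nearest in pattern to Cldn1, Cldn3, Cldn6 and Cldn7. Marveld2, Lsr, St14, Spint1, Spint2, Grhl2, Ovol2, Snai1, Snai2, Zeb2, the keratins, marker genes of other cells and genome neighbours stand outside that rule. They were chosen after their values were seen. Some listed genes that the rule would name are not reported here, though they count in the totals. Amino acid sequences and genome positions of the GRCm39 build were not used here.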

Additional observations from a re-analysis of the deposited data

How the results depend on the processing

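No paired analysis was possible because the groups share no library numbers. With library totals in place of TMM, 2452 genes were called lower and 6478 higher (72.5% of calls higher, against 51.1% of 4387 higher and 4192 lower with TMM). On that scale the log2 fold changes were -0.83 for Cldn1, 2.21 for Cldn3, 0.88 for Cldn4, 3.88 for Cldn6, 3.21 for Cldn7, 0.72 for Ocln, -0.36 for Tjp1 and -0.21 for F11r, and Cgn reversed to 0.085. That shift follows from the scale itself, which moved the median gene by 0.20. Leaving out 1 library at a time gave -1.10 to -0.99 for Cldn1, 1.95 to 2.06 for Cldn3, 3.62 to 3.73 for Cldn6, 2.95 to 3.08 for Cldn7 and -0.23 to -0.04 for Cgn. With the length of the longest coding transcript, an alternative chosen after seeing the data, the change in share of the claudin sum was -14.9 percentage points for Cldn1 (-11.1 with the union of exons), 2.46 for Cldn7 (1.73) and 2.58 for Cldn4, reversed from -0.57, so the direction for Cldn4 depends on the gene length used. Of 57 other junction genes tested, 40 kept their call or lack of one under each alternative run, and 17 changed under at least 1, 8 of them only with library totals. With library totals Sympk reversed from -0.02 to a called 0.18, and other genes that changed sign there, Patj and Cldn15 among them, were called on neither scale. The number of libraries, 3 per genotype, limits the precision, and the counts of the scarce Cldn8, Cldn15 and Clmp limit theirs.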

Other observations

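Genes next to the claudins in the genome, by RefSeq order on GRCm38, did not share one direction. Beside Cldn3 on the side away from Cldn4, Abhd11 was at 29.1 ± 0.638 CPM in wild type against 29.4 ± 1.12 CPM in knockout cells (log2 fold change 0.02 ± 0.07, edgeR adjusted p = 0.887). On the far side of Cldn4, Mettl27 rose from 16.9 ± 0.752 to 24.9 ± 0.467 CPM (0.56 ± 0.08, edgeR adjusted p = 3.58e-05), near the 0.68 of Cldn4 itself. Next to Cldn7, Slc2a4, the insulin-responsive glucose carrier gene, rose from 1.09 ± 0.446 to 5.11 ± 0.408 CPM (2.23 ± 0.24, edgeR adjusted p = 1.04e-06), and Elp5 on the other side fell from 87.9 ± 4.31 to 77.7 ± 1.80 CPM (-0.18 ± 0.06, edgeR adjusted p = 0.0251). Next to Cldn1, the collagen-modifying gene P3h2 fell from 2.63 ± 0.327 to 0.882 ± 0.295 CPM (-1.58 ± 0.24, edgeR adjusted p = 3.85e-05). Tnfrsf12a, beside Cldn6, rose by 0.20 ± 0.06 (edgeR adjusted p = 0.0117). These neighbours were looked up after the values of the claudins were known.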
